A study of Homo sapiens with 4 samples.

Results

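This account covers 10 genes in OVCAR3 cells, a human line of high-grade serous ovarian carcinoma: transcription factors and hormone receptors of the Müllerian lineage, with the antisense transcript of PAX8. They were taken by symbol (PAX8, PAX8-AS1, WT1, SOX17, EMX2, MECOM, ESR1, PGR, LHX1 and PAX2), and each symbol matched 1 of 62696 gene rows. Of the 10, 9 had at least 1 read and 8 passed the expression filter, set at 10 normalized counts on average. The series holds 3 libraries of cells with a short hairpin RNA against the pseudogene transcript ANAPC1P2 (KD 1, 2 and 3) and 1 library of wild-type cells (WT), grown in the same medium with serum. None of the libraries is labelled as carrying a non-targeting hairpin, so effects of a hairpin as such and of ANAPC1P2 cannot be told apart. The labels do not say whether the KD sets were separate cultures, so p-values reflect only how these libraries scatter, possibly for technical reasons, and the lone WT library is assumed to vary like the KD libraries.

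The Müllerian ducts form the fallopian tubes, uterus and upper vagina, and high-grade serous carcinoma keeps much of the transcription factor set of the tubal secretory cell. PAX8, a paired-box factor of kidney, thyroid and the Müllerian tract, and WT1, a zinc finger factor, are used as diagnostic markers of this tumour. SOX17 is a high-mobility-group factor that acts with PAX8 in these tumours, and MECOM encodes a zinc finger regulator often gained in copy number in them. EMX2, LHX1 and PAX2 are homeobox and paired-box factors needed for the embryonic urogenital ducts, and ESR1 and PGR encode the estrogen and progesterone receptors.

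The libraries held 27868718 (WT) to 56216398 counted reads, and 1.17% to 1.40% of reads in KD but 5.28% in WT fell in long noncoding genes. ANAPC1P2 itself had 0, 11 and 8 reads in KD 1, 2 and 3 and 14 in WT, so it was too low to be tested. A further ANAPC1P2 identifier had 0 reads in all 4 libraries. All 12 listed markers of serous carcinoma were detected in every group, and 7 were higher in KD and 3 lower (median 0.49, or -0.077 with equal totals, where 4 were higher and 5 lower). MUC16 stood at 28927 ± 5655 normalized counts in KD (SD, n = 3) and 458890 in WT, while the other 11 markers summed to 77562 to 83249 in KD and 48646 in WT. The WT library also held transcripts of other cell types. The 8 erythroid markers summed to 14871 normalized counts in WT and 3.11 to 11.1 in KD, where HBB, HBA1, HBA2 and 2 others had no read, and the 11 leukocyte markers to 963 against 87.8 to 118. Of 8 tested neural markers 3 were higher and 4 lower, with NEUROD6 at 2374 in WT and 0 reads in KD, and the list summed to 14009 to 16178 in KD and 12975 in WT. Of 8 tested fibroblast markers 0 were higher and 3 lower, and the list summed to 555 to 658 in KD and 1318 in WT. Beside the counts of serous, neural and fibroblast markers, 45.9% of all tested protein-coding genes were higher in KD and 24.7% lower by the same test. With equal totals, 20.3% of all tested genes were higher and 53.6% lower. The part of transcripts of other cell types in the results for the lineage genes was not tested. In bulk RNA, fewer cells of a type and less RNA per cell cannot be told apart.

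Changes between KD and WT were frequent. Of 23344 tested genes, 67.7% were called (limma, Benjamini-Hochberg adjusted p under 0.05), 31.4% higher in KD and 36.3% lower. Among the lineage genes, 6 of 8 tested were called, 4 higher and 2 lower. The share called is close to that background, and the split by direction is nearer to that of protein-coding genes. By class, 70.6% of protein-coding genes were called, 45.9% higher and 24.7% lower. Of long noncoding genes 59.7% were called, 6.32% higher and 53.4% lower. PAX8 and PAX8-AS1 were lower in KD, SOX17, MECOM, EMX2 and ESR1 were higher, and WT1 and LHX1 were not called. The median log2 difference was 0.14 over the 8 genes, of which all but PAX8-AS1 are protein-coding. It was -0.28 over all tested genes, 0.28 over protein-coding genes and -1.47 over long noncoding genes. With all libraries scaled to equal totals, the counts became 2 higher and 5 lower, against a background of 73.9% called, 20.3% higher and 53.6% lower, and the median over all tested genes moved to -0.84.

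PAX8 (ENSG00000125618.18, minus strand of chromosome 2, 113215997 to 113278950 in GENCODE 29 on GRCh38) had 18322, 19970.2 and 21361 normalized counts in KD 1, 2 and 3 and 62685 in WT. All 3 KD libraries lay far below the WT value and within a narrow range of each other. The KD mean was 19884 ± 1521 (SD, n = 3), 3.15-fold below WT, with a log2 difference of -1.66 ± 0.14 (SE, limma adjusted p = 1.40e-04). Scaled to the library total, PAX8 stood at 399, 457 and 448 RPM (reads per 1e6 counted) in KD and 2025 in WT. Ranked by normalized counts per kilobase of exon among 50696 genes with at least 200 exonic bases, PAX8 was at place 28 in WT and at places 708, 565 and 614 in KD. Even so, it remained the highest of the 10 genes per length in every library.

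PAX8-AS1 (ENSG00000189223.15, plus strand, 113211522 to 113276581), a noncoding transcript that runs through the PAX8 gene in the opposite direction, was lower by a larger factor. It had 5625, 7387 and 5127 normalized counts in KD 1, 2 and 3 and 73330.2 in WT. The groups were far apart, and KD 2 was the highest of the KD libraries. The KD mean of 6046 ± 1187 (SD, n = 3) was 12.1-fold below WT, with a log2 difference of -3.62 ± 0.20 (SE, limma adjusted p = 6.57e-05). In WT the transcript alone made up 2369 RPM, against 123, 169 and 108 in KD. Per length it ranked at place 109 in WT and at 5722, 4693 and 6169 in KD. Long noncoding genes as a class were lower in KD, with 53.4% of 4445 tested called lower and a median log2 difference of -1.47, and 5.15% of them had a difference at or below that of PAX8-AS1. Among 14464 tested protein-coding genes, 24.7% were called lower, the median was 0.28, and 10.7% lay at or below PAX8.

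Since PAX8 and PAX8-AS1 were lower together and MECOM moved the other way, the 250 bases before the most upstream RefSeq start of each are shown (GRCh38.p14, 5′ to 3′ on the gene's strand). SOX17, which rose more than MECOM, is not among them, and a link between these sequences and the differences was not tested. Capitals mark matches to the CCAAT box (CCAAT or ATTGG), the GC box (GGGCGG or CCGCCC) and the SOX core (ACAAT or ATTGT). The windows are chr2:113278922-113279171 on the minus strand for PAX8, chr2:113235277-113235526 on the plus strand for PAX8-AS1 and chr3:169663713-169663962 on the minus strand for MECOM.
PAX8: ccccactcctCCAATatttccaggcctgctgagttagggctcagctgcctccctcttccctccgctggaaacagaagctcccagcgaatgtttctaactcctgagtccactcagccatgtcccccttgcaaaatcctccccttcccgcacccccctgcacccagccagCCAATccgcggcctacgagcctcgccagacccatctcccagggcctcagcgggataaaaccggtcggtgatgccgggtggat
PAX8-AS1: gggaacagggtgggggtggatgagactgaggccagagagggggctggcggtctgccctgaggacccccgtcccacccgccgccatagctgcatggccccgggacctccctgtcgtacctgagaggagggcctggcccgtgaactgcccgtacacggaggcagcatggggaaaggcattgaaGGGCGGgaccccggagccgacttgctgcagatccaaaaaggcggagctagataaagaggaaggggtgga
MECOM: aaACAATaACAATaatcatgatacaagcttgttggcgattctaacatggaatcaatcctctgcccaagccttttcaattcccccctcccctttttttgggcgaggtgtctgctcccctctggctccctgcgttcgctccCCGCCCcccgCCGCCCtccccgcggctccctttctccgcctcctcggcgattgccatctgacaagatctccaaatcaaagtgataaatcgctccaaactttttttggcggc
These RefSeq starts of PAX8 and PAX8-AS1 lie 43394 bases apart. The counted GENCODE gene of PAX8-AS1 begins upstream of its RefSeq window, so the window is not shown to be the promoter of the transcripts counted. The PAX8 window held 2 CCAAT boxes, the PAX8-AS1 window 1 GC box and the MECOM window 2 GC boxes and 2 SOX cores. Over 35116 RefSeq windows of this length, 32.0% held a CCAAT box, 42.6% a GC box and 24.6% a SOX core on either strand. No window of the 3 held the letters of a TATA box (TATAAA, in 10.7% of all windows), a PAX core (GCGTGAC, in 2.20%), an EGR and WT1 site (GCGNGGGCG, in 8.41%, which can share letters with a GC box) or a palindromic estrogen response element (in 0.0399%). GC content was 61.6%, 66.0% and 53.6%, with a median of 58.0% over all windows. In the PAX8-AS1 window, 182 bases lie in an exon of PAX8 on the opposite strand and 102 in an exon of PAX8-AS1 itself, and 29 bases of the PAX8 window lie in a PAX8 exon.

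**Figure D1:**
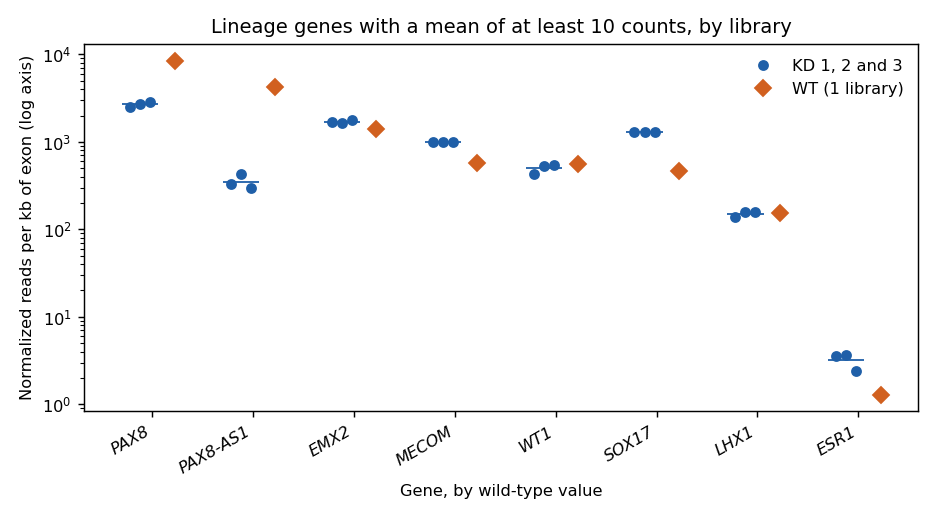
Normalized reads per kilobase of exon (log axis) for the 8 lineage genes that passed the filter, ordered by the wild-type level; circles are KD 1, 2 and 3, the short line is their mean and the diamond is the WT library. PAX8 and PAX8-AS1 lie below WT in all 3 KD libraries, and SOX17, MECOM, EMX2 and ESR1 above it.

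Among the factors that work beside PAX8, SOX17 (chromosome 8, 54457935 to 54460888) had 3044, 3007 and 3054 normalized counts in KD and 1080 in WT. The KD libraries hardly differed from each other and all lay above WT. The KD mean of 3035 ± 25.1 (SD, n = 3) was 2.81-fold higher, a log2 difference of 1.49 ± 0.09 (SE, limma adjusted p = 6.98e-05), and 13.9% of tested protein-coding genes were at or above it. SOX17 is also a factor of endothelial cells. Of 7 tested endothelial markers 0 rose and 2 fell, beside 45.9% higher and 24.7% lower among protein-coding genes. With equal totals 6 fell, beside 53.6% of all tested genes called lower with that scaling. The summed level of all 10 was 944 to 1165 in KD and 1403 in WT. The junction gene CDH5 was under the filter and so not among the tested markers. It had 22.2 normalized counts in WT, against 3.04 ± 0.79 in KD (SD, n = 3). The part of endothelial transcripts in the SOX17 result was not tested. MECOM (chromosome 3, 169083499 to 169663618) had 9101, 9023 and 9163 in KD and 5168 in WT, with no overlap between the groups. The mean of 9095 ± 70.2 (SD, n = 3) was 1.76-fold higher. The log2 difference was 0.82 ± 0.09 (SE, limma adjusted p = 5.12e-04), and 32.3% of tested protein-coding genes were at or above it. With equal totals this difference shrank to 0.25 and kept its call (adjusted p = 0.0246).

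WT1 (chromosome 11, 32387775 to 32435630) had 1753, 2152 and 2238 normalized counts in KD and 2281 in WT. The highest KD library was almost level with WT, and KD 1 lay lowest. The log2 difference of -0.16 had a 95% interval of -0.53 to 0.20 (limma adjusted p = 0.364), which leaves room for a modest change in either direction. With equal totals WT1 was called lower (-0.73, adjusted p = 7.71e-03).

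The homeobox gene EMX2 (chromosome 10, 117542444 to 117549546) had 5478, 5384 and 5832 normalized counts in KD and 4525 in WT. All 3 KD libraries were above WT, by little: the mean of 5565 ± 236 (SD, n = 3) was 1.23-fold higher. The log2 difference was 0.30 ± 0.10 (SE, limma adjusted p = 0.0345), and 49.6% of tested protein-coding genes were at or above it. This call rests on the scaling, since with equal totals EMX2 was called lower (-0.27, adjusted p = 0.0150), and it was lost without KD 1 (adjusted p = 0.0885) or KD 3 (0.0617). LHX1 (chromosome 17, 36936785 to 36944612), a LIM homeobox gene, had 677, 765 and 769 in KD and 742 in WT, so the WT value lay among the KD libraries. Its log2 difference of -0.012 had a 95% interval of -0.33 to 0.30 (limma adjusted p = 0.939), and with equal totals it was called lower (-0.57, adjusted p = 9.68e-03). PAX2, the close relative of PAX8 in the urogenital ducts, had no read in 175400520 counted reads. At a floor of 3 reads, a count of 0 allows up to 0.926 normalized counts over the KD libraries together and 3.33 in WT. It allows more if both mates of a pair were counted.

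The steroid receptor genes were low. ESR1 (chromosome 6, 151656691 to 152129619) had 49.3, 50.5 and 33.4 normalized counts in KD and 17.8 in WT, from 52, 65, 30 and 16 reads. The KD libraries were above WT, at a mean of 44.4 ± 9.57 (SD, n = 3). The log2 difference was 1.25 ± 0.45 (SE, limma adjusted p = 0.0448), and 19.3% of tested protein-coding genes were at or above it. The ratio of pooled KD to WT was 2.57 when reads were taken as pairs, with an exact 95% counting interval of 1.24 to 6.17. The call did not hold with equal totals (adjusted p = 0.214), with DESeq2 on recovered reads (0.135), or without KD 1 (0.121) or KD 2 (0.113). PGR (chromosome 11, 101029624 to 101130524), a classical target of the estrogen receptor, had 0, 4 and 2 reads in KD and 4 in WT. It was under the filter, and its ratio taken in pairs, 0.417, had an interval of 0.0477 to 4.99, so no difference was detectable at this depth. PGR-AS1, its antisense partner, had no read.

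**Figure D2:**
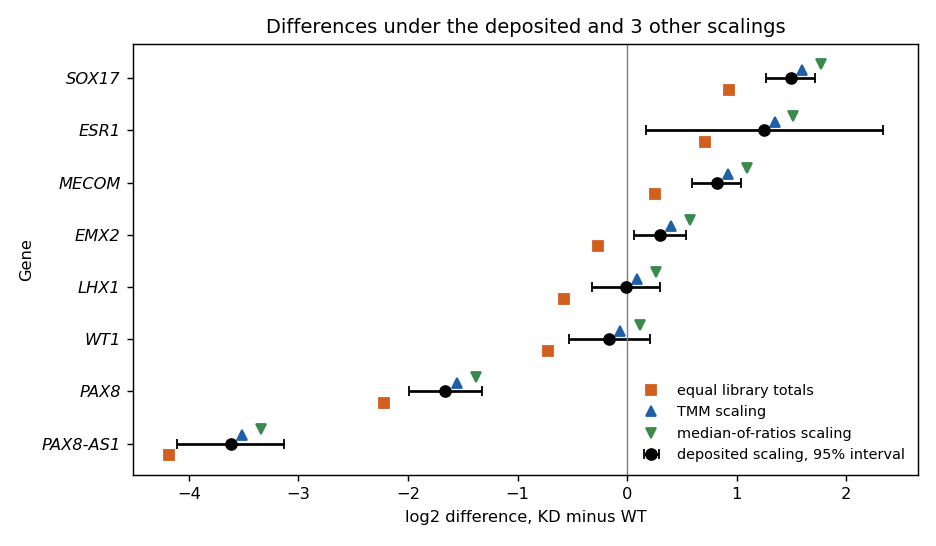
Log2 difference (KD minus WT) of each tested lineage gene with the deposited scaling (black, with the 95% limma interval) and with equal library totals, TMM and median-of-ratios scaling (coloured marks, no interval). PAX8, PAX8-AS1, SOX17, MECOM and ESR1 keep their sign under all 4 scalings, while EMX2, LHX1 and WT1 lie on both sides of 0.

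Compared per kilobase of exon, the order of levels in WT was PAX8 (8471 normalized counts per kilobase), PAX8-AS1 (4245), EMX2 (1387), MECOM (568), WT1 (555), SOX17 (461), LHX1 (152), ESR1 (1.28) and PGR (0.288). With a single WT library, neighbours as close as MECOM and WT1 cannot be ordered. In KD the order was PAX8 (2687 ± 206 per kilobase, SD, n = 3 here and for the next values), EMX2 (1706 ± 72.4), SOX17 (1296 ± 10.7), MECOM (999 ± 7.71), WT1 (498 ± 62.8), PAX8-AS1 (350 ± 68.7), LHX1 (151 ± 10.7), ESR1 (3.20 ± 0.69) and PGR (0.115 ± 0.104). The KD ranges of WT1 (426 to 544) and PAX8-AS1 (297 to 428) overlapped, while those of the other neighbours did not. PAX8-AS1 went from place 2 to place 6 and SOX17 from place 6 to place 3. Exon lengths are those of GENCODE 29, whose 17274 exonic bases for PAX8-AS1 include alternative exons that need not be used in these cells, so its level per length is uncertain.

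The 3 protein-coding genes whose pattern over the 4 libraries was nearest to that of PAX8, by Euclidean distance of mean-centred log2 values, were FBXL2 (0.0314), FBXW10B (0.0404) and FCGBP (0.0475). Likeness over only 4 libraries mostly reflects the size of the KD to WT difference.

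Noncoding partners of the other factors were measured as well. WT1-AS, which starts beside WT1 and runs away from it, had 758, 787 and 776 normalized counts in KD and 1538 in WT (log2 difference -0.99 ± 0.11 SE, limma adjusted p = 3.76e-04). EMX2OS, opposite to EMX2, had 3057, 3157 and 3312 in KD and 5804 in WT (-0.87 ± 0.10, adjusted p = 4.38e-04). Both were lower in all 3 KD libraries and under every scaling, while 62.7% and 65.8% of tested long noncoding genes had a difference at or below theirs. LHX1-DT, divergent from LHX1, had 80.6, 98.7 and 131 in KD and 72.2 in WT and was not called (0.48, 95% interval -0.35 to 1.32, limma adjusted p = 0.245, and -0.072 with equal totals). MECOM-AS1, added after its values were seen, had 42.7, 63.7 and 12.2 in KD and 299.9 in WT (-3.17 ± 0.84, limma adjusted p = 0.0151), and was not called without a filter (0.154).

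The ratio of partner reads to gene reads within a library does not depend on the scaling. For PAX8-AS1 to PAX8 it was 0.307, 0.370 and 0.240 in KD and 1.17 in WT, so antisense reads outnumbered PAX8 reads only in WT. For EMX2OS to EMX2 it was 0.558, 0.586 and 0.568 in KD and 1.28 in WT, and for WT1-AS to WT1 0.432, 0.366 and 0.347 against 0.674. MECOM-AS1 to MECOM differed in the same direction, at 4.69e-03, 7.06e-03 and 1.33e-03 against 0.0580. LHX1-DT to LHX1 went the other way, at 0.119, 0.129 and 0.171 against 0.0973. Of the 4 measured partners on the list, which leaves out MECOM-AS1, 3 had a lower ratio in every KD library than in WT. Beside this, 83.0% of tested long noncoding genes had a log2 difference below 0. With 3 libraries against 1, no permutation test of these ratios could reach 0.05. The libraries keep the strand, but whether the counting used it is not stated in the labels. In GENCODE 29, 685 exonic bases of PAX8 (9.26%) are shared with PAX8-AS1, 255 bases of EMX2 (7.82%) with EMX2OS and 113 bases of WT1 (2.75%) with WT1-AS, so without strand some reads of these pairs could not be assigned. LHX1 likewise shares 367 exonic bases with an antisense gene. ESR1 shares 135 with a gene on its own strand, so those reads are ambiguous with or without strand. The gene spans of PAX8 and PAX8-AS1 overlap over 60585 bases, while only 3.97% of the PAX8-AS1 exonic bases lie in PAX8 exons. Without strand, reads from PAX8 introns could therefore be counted for PAX8-AS1, which would affect its level and its ratio to PAX8. This was not tested.

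**Figure D3:**
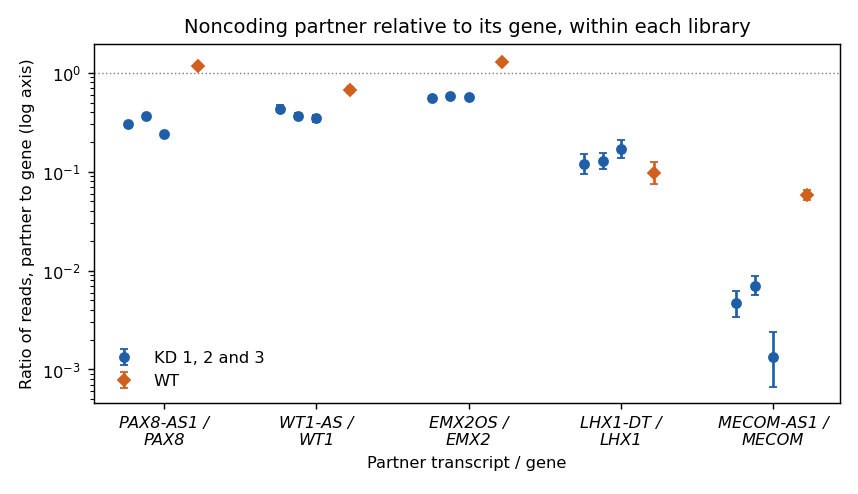
Reads of each noncoding partner divided by reads of its gene in the same library (log axis), with exact 95% counting intervals; circles are KD 1, 2 and 3 and diamonds WT. The WT ratio is above all KD ratios for PAX8-AS1, WT1-AS, EMX2OS and MECOM-AS1, and below them for LHX1-DT.

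**Figure D4:**
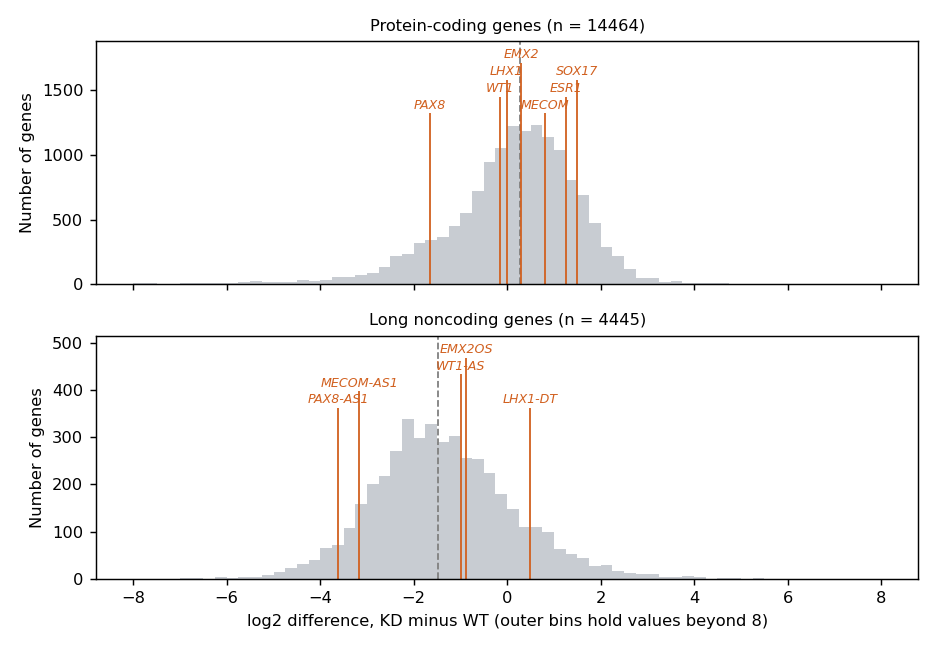
Number of genes by log2 difference (KD minus WT) for 14464 protein-coding and 4445 long noncoding tested genes, with the lineage genes and their partners as orange lines and each class median (0.28 and -1.47) as a dashed line. PAX8 lies in the lower tail of protein-coding genes and PAX8-AS1 in that of long noncoding genes, whose distribution is shifted to lower values.

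Few relatives of PAX8 were measurable. Of the 9 PAX genes, 4 had no read in any library and 3 were tested, PAX8 and 2 others, with PAX6 lower in KD (134 ± 20, SD, n = 3, against 294, log2 difference -1.14) and PAX9 not called (214 ± 22.3 against 183). For the lists given here and next, the background among protein-coding genes is 45.9% higher and 24.7% lower, with a median of 0.28. That background holds for the deposited scaling only. Values with equal totals stand beside 20.3% higher and 53.6% lower over all tested genes, with a median of -0.84. PAX8 is also a factor of kidney and thyroid. Of the 8 kidney markers 3 were tested and all 3 were lower in KD, CUBN 9.37-fold, AQP2 3.97-fold and LRP2 2.77-fold. The list summed to 2297 to 3275 normalized counts in KD and 8326 in WT, with UMOD at 0 in all libraries. The thyroid gene TG had 1 read in KD and none in WT, and the part of kidney-type transcripts in the PAX8 result was not tested. Of the 9 tested genes listed as PAX8 or WT1 targets, 4 rose and 2 fell (median 0.11, or -0.46 with equal totals, where 4 rose and 3 fell). BMP4, SPRY1, E2F1 and FOXM1 were 5.01-fold, 2.86-fold, 2.49-fold and 2.25-fold higher. TSHR, the thyrotropin receptor gene, was lower at 2713 ± 187 (SD, n = 3) against 5821.

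Among 13 tested genes of the SOX family 5 rose and 4 fell, with a median of 0.31 (-0.24 with equal totals). Beside this, 45.9% of protein-coding genes were higher and 24.7% lower, and 31.4% and 36.3% of all tested genes. SOX9 rose 2.55-fold beside SOX17, SOX6 fell 1.89-fold (not called with median-of-ratios scaling), and SOX10, a factor of neural crest cells, stood at 4.94 ± 3.96 (SD, n = 3) in KD against 860 in WT. The other genes of the same subgroup as SOX17, SOX7 and SOX18, were under the filter with 27 and 4 reads over KD and 6 and 2 in WT. Of 11 tested neighbours of MECOM on chromosome 3, 7 rose and 2 fell, with a median of 0.78 (0.22 with equal totals, 5 higher and 3 lower), beside 45.9% higher and 24.7% lower among protein-coding genes. EIF5A2, CLDN11, PRKCI and SEC62 were 4.82-fold, 2.43-fold, 2.21-fold and 2.16-fold higher. With TMM scaling 7 rose and 0 fell. Of 12 tested corepressors and relatives of MECOM 7 rose and 1 fell (median 0.50, or -0.064 with equal totals, where 3 rose and 4 fell), with the deacetylase genes HDAC2 and HDAC1 3.19-fold and 2.46-fold higher.

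The receptors belong to the steroid receptor family. Of its 7 tested genes, 4 rose and 2 fell (median 0.84, or 0.28 with equal totals). The glucocorticoid receptor gene NR3C1 rose 2.28-fold, and ESR2, encoding estrogen receptor beta, fell 5.68-fold, from 1452 to 256 ± 38.3 (SD, n = 3). Of 19 tested estrogen receptor targets 10 rose and 6 fell (median 0.30), near the protein-coding background of 45.9% and 24.7%, and with equal totals 6 rose and 11 fell (median -0.26). CA12 and NRIP1 were 4.88-fold and 3.20-fold higher, whereas GREB1 and PDZK1, classical estrogen-induced genes, were 3.34-fold and 4.91-fold lower, and TFF1 had no read. Without a filter, GREB1 was no longer called. Of 6 tested progesterone receptor targets 3 rose, among them ERRFI1 and FKBP5 (2.83-fold and 2.34-fold), and 2 fell, PRLR 1.91-fold and PER1 1.55-fold, the latter not called with median-of-ratios scaling (adjusted p = 0.102) or without KD 1 (0.0536). The median of 0.40 became -0.16 with equal totals. Of 17 tested coregulators of these receptors 8 rose and 4 fell (median 0.21, or -0.35 with equal totals, where 4 rose and 10 fell), with the pioneer factor gene FOXA1 5.86-fold and the methyltransferase gene PRMT1 3.15-fold higher.

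Other genes of duct development went in both directions. Of 23 tested, 11 rose and 5 fell, with a median of 0.55 (-0.012 with equal totals, where 5 rose and 9 fell), shares close to the 45.9% higher and 24.7% lower of protein-coding genes. GATA6 was 2.28-fold higher and AMH, which encodes anti-Müllerian hormone, 4.86-fold lower. WNT7A, a Wnt ligand of the duct epithelium, had 103 normalized counts in the wild type but 0 reads in KD. Set against a floor of 3 reads over the KD group, with the WT count taken as exact, this was 112-fold lower. The lower limit of the exact counting interval was smaller, at 89.0-fold on reads and 44.1-fold when reads were taken as pairs. HOXA9, the HOX gene of the fallopian tube, had 864 in WT and 1266 ± 35.9 in KD (SD, n = 3), a difference of 0.55 on the log2 scale that is about the size of the shift made by equal totals. Of 8 tested markers of the tubal epithelium 4 rose and 3 fell (median 0.40, or -0.16 with equal totals). EPCAM was 2.42-fold higher. KRT7 of secretory cells was 1.70-fold higher and was not called with equal totals (limma adjusted p = 0.0746). CAPS of ciliated cells was 2.60-fold higher and CCDC78 3.22-fold lower.

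**Figure D5:**
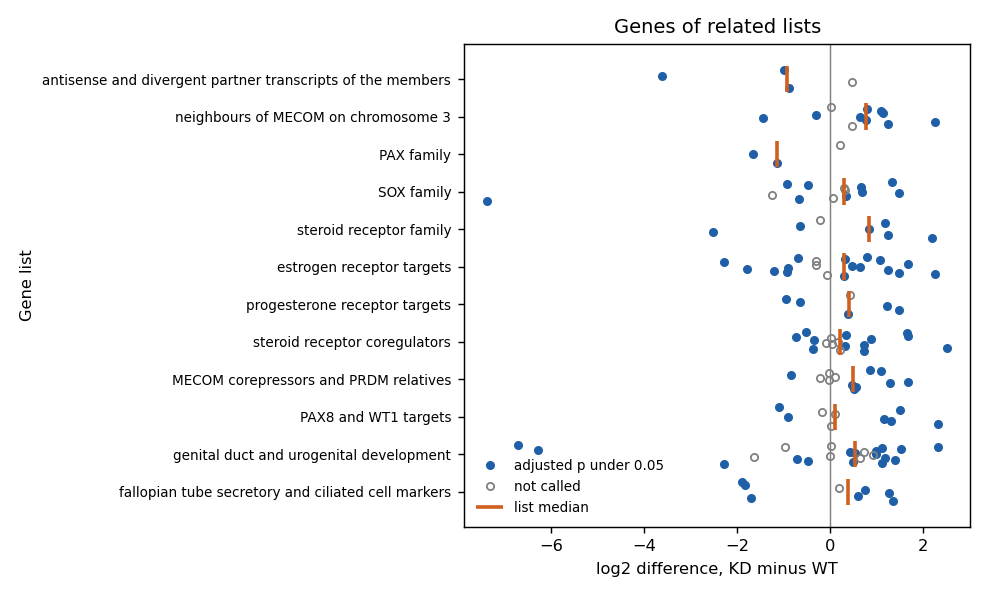
Log2 difference (KD minus WT) of each tested gene in 12 related lists, with filled circles for limma adjusted p under 0.05, open circles for genes not called and an orange line at the list median. Every list except the noncoding partners and the PAX family holds called genes on both sides of 0.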

How the data were processed

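Reads were handled with STAR (2.7.11b), featureCounts (2.0.6) and DESeq2 on hg38, per the submitters' processing notes. The sources used here do not give the annotation release, strand setting or size factors. The authors deposited a signal per gene, the normalized read count, and 100% of values were whole multiples of 1 step per library (within 0.001 reads), so reads were recovered. Of recovered counts from 1 to 20, 68.8% to 76.6% per library were even, as when both mates of a pair are counted, so intervals were computed on pairs where stated, and those on reads are too narrow. No molecular identifiers are described in the labels, and intervals and floors (3 reads) cover counting error only.

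The test was two-sided limma-trend (limma 3.58.1, R 4.3.3) on log2(normalized count + 1) over genes with a mean of at least 10, with Benjamini-Hochberg adjustment at 0.05. On simulated data of this comparison over 23344 genes it recovered 73 of 100 genes changed 2-fold and 89 of 100 changed 4-fold, among genes with a mean of at least 50, with 25 false calls in 23144. The simulated WT library scattered like the KD libraries, few genes were changed and the scaling was known. These counts therefore do not give the error rate of the real comparison. Fold changes on this scale understate the change of low genes, and folds given are ratios of the KD mean to WT. Alternatives were edgeR 4.0.16 and DESeq2 1.42.0 on recovered reads with the deposited scaling (all 23344 genes), 2 pseudocounts, 2 filters, 3 scalings and leaving out each KD library. edgeR called 7402 genes higher and 9271 lower, and DESeq2 6922 and 7114.

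Positions, types and exonic lengths came from GENCODE 29 (GRCh38), where 95.1% of tested identifiers were found, and promoters from RefSeq (GRCh38.p14). The genes and lists were chosen with earlier results of these data known, so list counts are descriptions. Named genes are the 10 genes, their partners, ANAPC1P2, the 3 protein-coding genes nearest to PAX8, markers at 0 and up to 4 called genes per list with the largest difference and at least 100 counts in the higher group. PAX9, TSHR, HOXA9, MECOM-AS1 and genes given at 0 or few reads were chosen after their values were seen. Some genes that this rule names are not reported here.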

Additional observations from a re-analysis of the deposited data

How the results depend on the processing

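PAX8, PAX8-AS1, SOX17 and MECOM kept their direction and their call under all 12 alternatives, with log2 differences of -2.22 to -1.38, -4.18 to -3.34, 0.93 to 1.77 and 0.25 to 1.09 and adjusted p of at most 8.90e-03, 0.0100, 9.44e-04 and 0.0246. The direction changed for EMX2 with equal totals (-0.27), for WT1 with median-of-ratios scaling (0.12), for LHX1 with TMM (0.089) and median-of-ratios scaling (0.27) and without KD 1 (-0.044 to 0.049 over the leave-outs), and for LHX1-DT with equal totals (-0.072). EMX2 and ESR1 were not called without a filter (adjusted p = 0.0624 and 0.0942). Lineage genes called higher numbered 4 with the deposited scaling and 2 with no filter and with equal totals, those called lower 2 and, with equal totals, 5. Leaving out 1 KD library gave 2 to 3 higher and 2 lower among the lineage genes, and 6697 to 7055 higher and 7507 to 8131 lower over all tested genes. Over all tested genes, 7329 were higher and 8465 lower, 4745 and 12506 with equal totals, 8758 and 6630 with median-of-ratios scaling, and 5086 were lower with a mean of at least 50. Of the genes in the related lists, 35 were higher and 59 lower with equal totals, against 62 and 35 with the deposited scaling. For the other named genes, 798 values under the alternatives kept direction and call, 15 lost the call and 1 changed direction. No paired analysis was possible because WT has 1 library. Depth limits ESR1, PGR and PAX2. No difference under 2-fold was simulated in any gene, and none of any size in genes with a mean under 50.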

Other observations

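PGRMC1 and PGRMC2, chosen after their values were seen, encode membrane-associated progesterone receptor components. PGRMC1 had 19981, 18187 and 19981 normalized counts in KD and 4200 in WT, 4.62-fold higher (log2 difference 2.20 ± 0.11 SE, limma adjusted p = 6.57e-05). PGRMC2 had 3528, 3093 and 3733 against 2206, 1.56-fold higher (0.64 ± 0.13, adjusted p = 4.98e-03), and was not called with equal totals (0.078, adjusted p = 0.435) or without a filter (0.0633). Beside these, 45.9% of tested protein-coding genes were called higher in KD.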
